A study of Mus musculus with 6 samples.

Results

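The genes described here are 68 mouse genes whose transcripts were less abundant, by a factor of 2 or more, in GPR35-positive than in GPR35-negative libraries of tumour neutrophils, a wider gap than that of the liver tumour transcripts in the same libraries. They were chosen on the measured values. A gene was taken when its mean over the GPR35-negative libraries was at least 2 FPKM (fragments scaled to transcript length and library size), its ratio of means, GPR35-positive over GPR35-negative, was at most 0.5, and every GPR35-positive value lay below every GPR35-negative value. Of 21959 genes in the table, 8114 reached the level minimum and 76 met all criteria, which is 0.937% of those 8114; the ratio limit alone was met by 0.949% and the separation alone by 55.2%. A list of 9 genes was set aside by name, of which 8 met the criteria and Cyp1a1, at a ratio of 0.506, did not, and this left 68. Symbols came from GENCODE M21, in which 67 of the 68 had an entry, all 67 as protein-coding genes. ENSMUSG00000118668 had none and is named by its identifier only.

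The libraries came from neutrophils of mice bearing tumours of Hepa1-6, a mouse hepatocellular carcinoma cell line, divided by their GPR35, a receptor coupled to G proteins that responds to tryptophan metabolites and other small molecules. The GPR35-positive group held 3 libraries and the GPR35-negative group 3, and the comparison asks how the RNA of the first differed from that of the second. Strain, age, sex, the sorting scheme and whether replicates came from separate animals are not stated in the labels, so p-values cover the spread between these libraries alone, and that spread may be technical. Reads counted on genes, recovered from the step size of the FPKM values, totalled 17132645, 16329516 and 18314104 in GPR35-positive replicates 1 to 3 and 17244562, 16943517 and 15742743 in GPR35-negative replicates 1 to 3.

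All 6 libraries carried abundant hepatocyte and hepatoma transcripts beside those of neutrophils, which bears on every value below. Summed mature neutrophil markers, 18 genes, were at 10591 FPKM (10064 to 11020 over libraries) in GPR35-positive and 1059 FPKM (921 to 1183) in GPR35-negative libraries. Summed hepatocyte and hepatoma markers, 23 genes, were at 23201 FPKM (22930 to 23414) in GPR35-positive and 35686 FPKM (34826 to 36469) in GPR35-negative libraries, and none of the markers of either list was at 0 in all libraries. Summed macrophage and monocyte markers were at 970.0 FPKM (953 to 986) in GPR35-positive and 45.9 FPKM (38.4 to 52.7) in GPR35-negative libraries. In such bulk samples, fewer cells of a type and less RNA per cell cannot be told apart.

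Among the 68 are genes of the basement membrane, of cell polarity and of receptor tyrosine kinases. Epithelia, hepatocytes included, rest on or face a matrix of laminins, collagens and proteoglycans, divide their surface into apical and basal domains with the help of polarity proteins such as the Lgl family, and read growth signals through receptor tyrosine kinases of the ErbB, Eph and FGF receptor families. Genes also differ in base composition: the share of G and C in the transcript, most variable at the third base of codons, affects how efficiently a fragment is amplified and sequenced, so FPKM values of GC-rich and GC-poor genes can respond differently to library preparation.

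The first 30 codons of 5 of the genes, and of 2 hepatocyte markers, show this composition. The 5 are the gene with the highest exon GC content (Irf2bp1), the gene with the lowest (Ndrg1), the gene with the lowest ratio (Hspg2) and the pair of Lgl polarity genes, and Afp and Alb are the alpha-fetoprotein and albumin genes of hepatoma cells. Each sequence is the start of the longest coding sequence in GENCODE M21 (GRCm38), 5′ to 3′, with every G or C at the third base of a codon in capitals.
Irf2bp1: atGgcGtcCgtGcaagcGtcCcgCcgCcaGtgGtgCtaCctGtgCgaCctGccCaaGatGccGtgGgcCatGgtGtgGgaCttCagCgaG
Ndrg1: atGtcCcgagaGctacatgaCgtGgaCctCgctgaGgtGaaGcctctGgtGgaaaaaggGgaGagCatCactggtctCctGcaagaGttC
Hspg2: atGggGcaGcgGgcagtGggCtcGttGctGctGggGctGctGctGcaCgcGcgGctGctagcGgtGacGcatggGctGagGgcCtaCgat
Llgl1: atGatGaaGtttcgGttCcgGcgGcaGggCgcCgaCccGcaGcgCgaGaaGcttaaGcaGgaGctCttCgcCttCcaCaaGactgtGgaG
Llgl2: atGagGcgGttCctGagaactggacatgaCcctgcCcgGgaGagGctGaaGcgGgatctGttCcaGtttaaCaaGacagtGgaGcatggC
Afp: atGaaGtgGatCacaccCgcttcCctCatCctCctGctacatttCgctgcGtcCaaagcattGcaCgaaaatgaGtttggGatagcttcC
Alb: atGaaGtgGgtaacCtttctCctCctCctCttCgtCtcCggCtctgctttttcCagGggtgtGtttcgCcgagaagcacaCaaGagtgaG
Capitals stand at 29 of 30 codons in Irf2bp1, 26 in Hspg2, 27 in Llgl1, 21 in Llgl2 and 20 in Ndrg1, against 18 in Afp and 19 in Alb. Over the whole coding sequence, G or C held 68.8% of these positions in Irf2bp1, 68.3% in Hspg2, 66.1% in Llgl1, 73.5% in Llgl2 and 70.3% in Ndrg1. In Afp and Alb it held 54.1% and 51.6%. These 2 are among the GC-poorer markers, with an exon GC content of 44.8% and 45.9%, against a median of 51.6% over the 21 markers tested. Rbp4 and Apoe, also hepatocyte and hepatoma markers, had 58.3% and 57.4%, near the median of the set (57.5%), with ratios of 0.609 and 0.659.

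Across the 68 genes the ratio ran from 0.373 for Hspg2 to 0.4995 for Ndrg1, with a median of 0.472. Mean levels were 0.752 to 27.5 FPKM (median 2.74) in GPR35-positive libraries and 2.01 to 57.0 FPKM (median 5.91) in GPR35-negative libraries, so these were mostly genes of low to moderate abundance. In GPR35-negative libraries 27 of the genes averaged under 5 FPKM, 20 from 5 to under 10 and 21 at least 10. The 65 genes whose reads could be recovered from FPKM steps had 10 to 2634 reads a library (median 239) in GPR35-positive and 31 to 5510 (median 479) in GPR35-negative libraries. All 68 passed the filter for testing and all 68 were past the threshold of limma's test as lower in GPR35-positive libraries, against 45.5% of the 10060 genes tested. That count follows from the choice of the genes and nothing is read from it. Their median log2 fold change was −0.87, against −0.19 over all genes tested. Median-of-ratios scaling moved the median of all genes tested to −0.07, a shift of 0.12, and the genes called higher or lower to 2751 and 3030, against 2342 (23.3%) and 4575 as deposited.

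**Figure D1:**
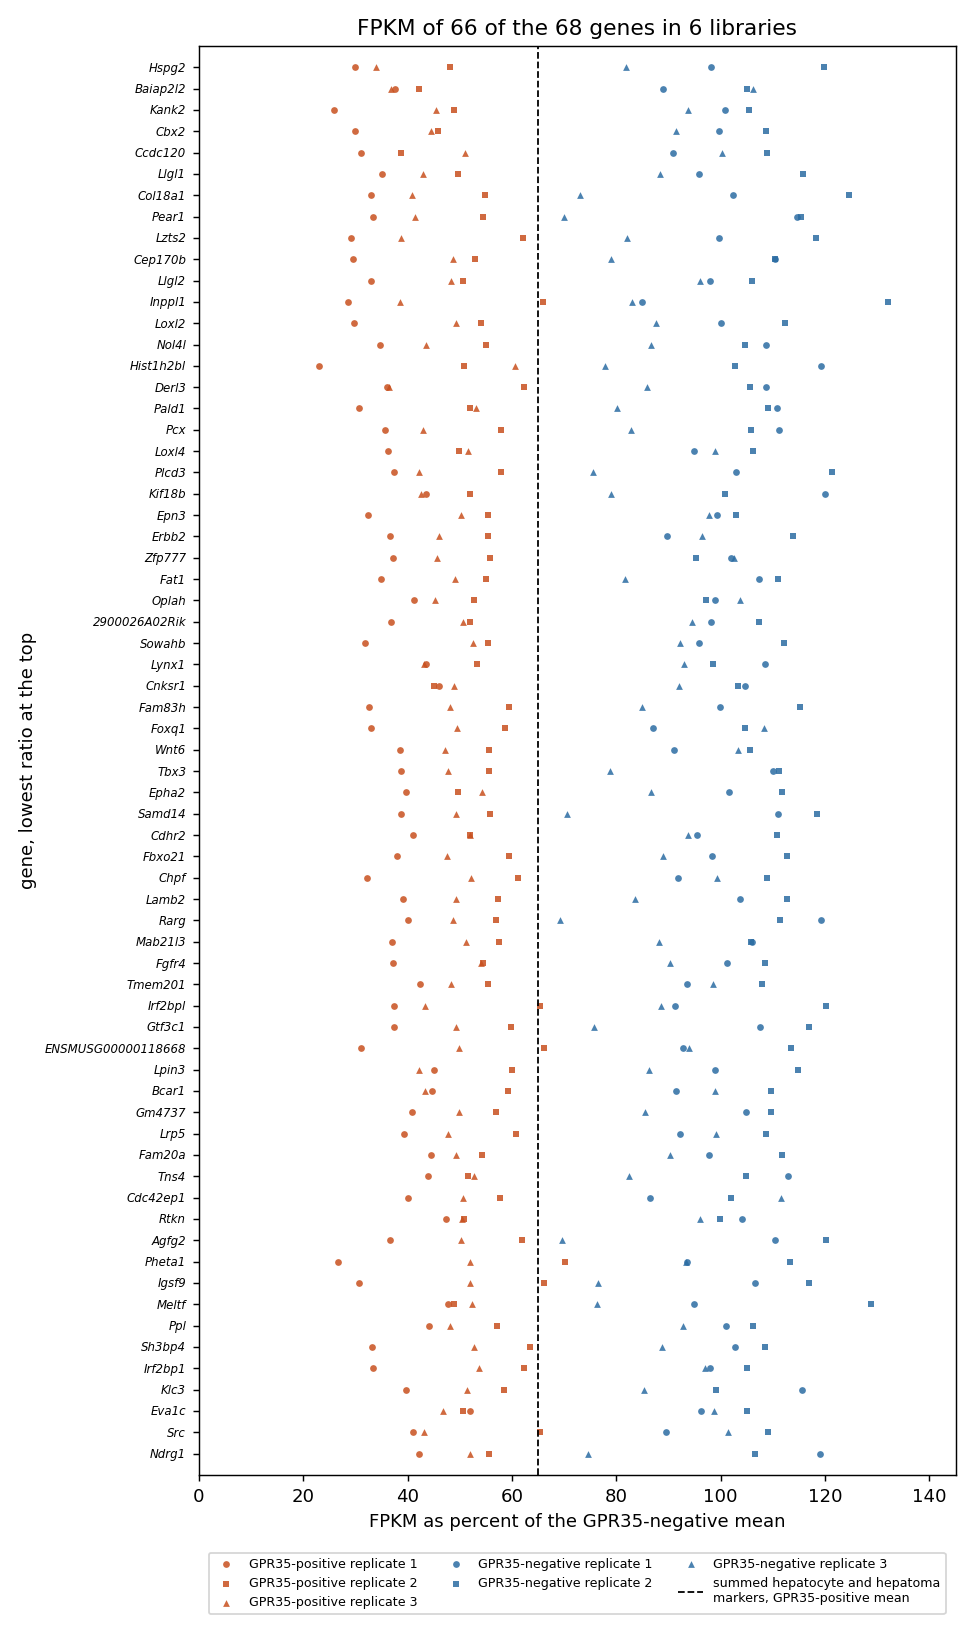
FPKM of 66 of the 68 genes (down the page, lowest ratio at the top) in each library, as percent of that gene's mean over the 3 GPR35-negative libraries; orange marks are the GPR35-positive and blue marks the GPR35-negative libraries, with a circle, square and triangle for replicates 1, 2 and 3. The dashed line is the level of summed hepatocyte and hepatoma markers in GPR35-positive libraries, a ratio of 0.650. GPR35-positive replicate 1 (orange circles) is the lowest of its group in 61 of the 68 genes (89.7%). Over all genes at the level minimum that share is 41.3%.

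Matrix genes numbered 6 of the 68, with ratios from 0.373 to 0.485. Hspg2, which encodes the basement membrane proteoglycan perlecan, had 0.602, 0.968 and 0.685 FPKM in GPR35-positive replicates 1 to 3, against 1.98, 2.41 and 1.65 FPKM in GPR35-negative replicates 1 to 3. GPR35-positive replicate 1 was the lowest of all libraries and GPR35-negative replicate 2 the highest, and the groups did not overlap, as the choice of genes requires throughout. The gene spans positions 137468769 to 137570630 of chromosome 4 (GRCm38, forward strand), and its exons cover 14307 bases. Col18a1, encoding collagen XVIII, the basement membrane collagen from which endostatin is released, had 2.97, 4.93 and 3.68 FPKM in GPR35-positive libraries and 9.19, 11.2 and 6.57 FPKM in GPR35-negative libraries. The lowest GPR35-negative value, that of replicate 3, stood closer to the GPR35-positive values than the other two did. Lamb2, a laminin beta chain, averaged 2.91 ± 0.547 FPKM in GPR35-positive and 5.99 ± 0.891 FPKM in GPR35-negative libraries (SD, n = 3 each). The collagen cross-linking enzymes Loxl2 and Loxl4 had ratios of 0.444 and 0.459, and Chpf, which takes part in building chondroitin sulphate chains, had 0.485.

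Other basement membrane and large receptor genes, from a list chosen with earlier results of these data known, were counted apart. Of 9 tested, 7 were called lower and 2 higher by limma. They include Lama5, the laminin alpha 5 chain, which met the criteria before it was set aside and so carries no test here, at 5.27 ± 0.986 FPKM in GPR35-positive and 13.2 ± 2.52 FPKM in GPR35-negative libraries (SD, n = 3 each). Of the 8 without it, 6 were called lower (75%) and 2 higher (25%), with a median ratio of 0.675. Over all genes tested 45.5% were lower and 23.3% higher, with a median of 0.852. The lower share and the median of the list were near those of the 21 hepatocyte and hepatoma markers tested, 76.2% and 0.670. Lamb1, the laminin beta 1 chain, averaged 1.82 ± 0.167 FPKM in GPR35-positive and 3.56 ± 0.168 FPKM in GPR35-negative libraries (SD, n = 3 each, limma adjusted p = 5.41e-05). Sorl1, a sorting receptor that neutrophils and other leukocytes also express, was 1 of the 2 higher genes, at 6.94 ± 0.621 FPKM in GPR35-positive and 1.47 ± 0.263 FPKM in GPR35-negative libraries (SD, n = 3 each, limma adjusted p = 2.19e-07).

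Polarity and junction genes formed a group of 7. Llgl1, an Lgl protein that marks the basolateral domain, had 3.11, 4.4 and 3.8 FPKM in GPR35-positive libraries and 8.47, 10.2 and 7.80 FPKM in GPR35-negative libraries. Its paralog Llgl2 had 3.14, 4.82 and 4.6 FPKM in GPR35-positive libraries and 9.31, 10.1 and 9.13 FPKM in GPR35-negative libraries. The 2 genes thus stood at like levels, with ratios of 0.426 and 0.440, and replicate 1 was the lowest of the GPR35-positive libraries in both. Both lie on chromosome 11, from 60699723 to 60714186 and from 115824049 to 115855780, on the forward strand. Lzts2, a leucine zipper protein that restrains beta-catenin signalling, had 2.98, 6.35 and 3.95 FPKM in GPR35-positive libraries and 10.2, 12.1 and 8.36 FPKM in GPR35-negative libraries. Its GPR35-positive replicate 2 stood well above the other two and closest to the GPR35-negative values. Fat1, a giant protocadherin and a gene of low exon GC content for this set (50.9%), had 2.63, 4.14 and 3.70 FPKM in GPR35-positive libraries and 8.09, 8.35 and 6.15 FPKM in GPR35-negative libraries. Cdhr2, a protocadherin of microvilli, Igsf9, an immunoglobulin family adhesion protein, and Ppl, which encodes the desmosomal linker periplakin, had ratios of 0.483, 0.496 and 0.497.

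Among 13 other epithelial polarity genes tested, 8 were called lower (61.5%, against 45.5% over all genes tested) and 1 higher, with a median ratio of 0.708. Pard6b, a subunit of the Par polarity complex, averaged 3.10 ± 0.0568 FPKM in GPR35-positive and 5.58 ± 0.0883 FPKM in GPR35-negative libraries (SD, n = 3 each, limma adjusted p = 3.28e-05). Crb3, the Crumbs protein of the apical membrane, averaged 35.6 ± 2.01 FPKM in GPR35-positive and 60.7 ± 2.83 FPKM in GPR35-negative libraries (SD, n = 3 each, limma adjusted p = 8.35e-06). Mpp5, the Crumbs partner PALS1, was the 1 gene called higher, at 6.29 ± 0.247 FPKM in GPR35-positive and 2.75 ± 0.283 FPKM in GPR35-negative libraries (SD, n = 3 each, limma adjusted p = 5.90e-06). Of 21 other adhesion and hemidesmosome genes, 17 were called lower and 2 higher. They include Itgb4, the integrin of hemidesmosomes, which met the criteria before it was set aside and carries no test here, with a ratio of 0.426. Of the 20 without it, 16 were called lower (80%, against 45.5%) and 2 higher, with a median ratio of 0.644. Among the hepatocyte and hepatoma markers tested, the lower share was 76.2% and the median ratio 0.670. Cldn3, a tight junction claudin, had a ratio of 0.60 (limma adjusted p = 3.83e-05). Cldn1, another claudin, averaged 6.24 ± 0.366 FPKM in GPR35-positive and 0.457 ± 0.0609 FPKM in GPR35-negative libraries (SD, n = 3 each, limma adjusted p = 3.61e-09).

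Receptors and signalling proteins made up 12 of the 68. Erbb2, the receptor tyrosine kinase HER2, had 3.04, 4.6 and 3.83 FPKM in GPR35-positive libraries and 7.45, 9.44 and 8.0 FPKM in GPR35-negative libraries. Fgfr4, the hepatocyte receptor for the gut hormone FGF15, had 3.54, 5.19 and 5.15 FPKM in GPR35-positive libraries and 9.63, 10.3 and 8.59 FPKM in GPR35-negative libraries. Epha2, an ephrin receptor, had 5.01, 6.26 and 6.85 FPKM in GPR35-positive libraries and 12.8, 14.1 and 10.9 FPKM in GPR35-negative libraries. In these 3 kinases GPR35-positive replicate 1 was again the lowest, while the highest GPR35-positive library was replicate 2 for Erbb2 and Fgfr4 and replicate 3 for Epha2. Pear1, an EGF-repeat receptor known from platelets, had 1.45, 2.37 and 1.80 FPKM in GPR35-positive libraries and 4.98, 5.01 and 3.04 FPKM in GPR35-negative libraries. Inppl1, the inositol phosphatase SHIP2, had 1.17, 2.70 and 1.58 FPKM in GPR35-positive libraries and 3.48, 5.4 and 3.39 FPKM in GPR35-negative libraries. The spread was wide within both groups for Inppl1, where replicate 2 was the highest library of each group. Ligand and co-receptor genes of the Wnt pathway were present with Wnt6 (ratio 0.471) and Lrp5 (0.493). Src, a cytoplasmic tyrosine kinase, had 2.39, 3.81 and 2.51 FPKM in GPR35-positive libraries and 5.21, 6.35 and 5.9 FPKM in GPR35-negative libraries. Its replicate 2 was the highest library of each group. Its substrate Bcar1, the adaptor p130Cas (0.491), the Ras pathway scaffold Cnksr1 (0.467), the GTPase effector Rtkn (0.495) and the phospholipase Plcd3 (0.459) completed the group.

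Of 20 other genes of insulin and growth factor signalling tested, 10 were called lower and 8 higher. Without Ephb4, which met the criteria before it was set aside, 9 of 19 were called lower (47.4%) and 8 higher (42.1%), with a median ratio of 0.841. The lower share was near that over all genes tested, 45.5%, and the higher share above it, 23.3%. Grb2, the adaptor that links receptors to Ras, averaged 17.2 ± 0.775 FPKM in GPR35-positive and 6.25 ± 0.702 FPKM in GPR35-negative libraries (SD, n = 3 each, limma adjusted p = 4.78e-07). The receptor genes Igf2r and Igf1r had ratios of 3.35 and 7.93 (limma adjusted p = 1.26e-06 and 1.97e-06). Of 18 other Wnt receptors and intracellular components, 8 were called lower (44.4%, near the 45.5% over all genes tested) and 1 higher, with a median ratio of 0.806. The lower ones were led by Fzd4, a Frizzled receptor, at 12.4 ± 0.208 FPKM in GPR35-positive and 20.4 ± 0.489 FPKM in GPR35-negative libraries (SD, n = 3 each, limma adjusted p = 1.42e-05), followed by Rnf43 and Axin2, both feedback inhibitors of the pathway, with ratios of 0.602 and 0.604. The count of 8 was 4 when GPR35-negative replicate 1 or 2 or GPR35-positive replicate 3 was left out, and 5 when GPR35-positive replicate 1 was. Of 15 Notch pathway genes, none of which is among the 68, 8 were called lower (53.3%) and 6 higher (40%), with a median ratio of 0.742, and the smallest p-values were those of higher genes: Notch2 with a ratio of 2.79, Numb with 1.85 and Lfng with 3.18 (limma adjusted p = 2.67e-07, 3.02e-05 and 4.09e-05).

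Cytoskeleton and membrane traffic genes were the largest group, with 13. Baiap2l2, a membrane-bending protein of epithelia, had 0.899, 1.01 and 0.881 FPKM in GPR35-positive libraries and 2.13, 2.51 and 2.54 FPKM in GPR35-negative libraries. Kank2, an adhesion-associated regulator of actin and microtubules, had 1.57, 2.96 and 2.75 FPKM in GPR35-positive libraries and 6.11, 6.39 and 5.68 FPKM in GPR35-negative libraries. Baiap2l2 was the most even of the genes with the lowest ratios among the GPR35-positive libraries, whereas GPR35-positive replicate 1 stood well below the other two for Kank2. Ccdc120, on chromosome X, had 0.673, 0.838 and 1.10 FPKM in GPR35-positive libraries and 1.96, 2.35 and 2.17 FPKM in GPR35-negative libraries. Cep170b, related to a centrosomal protein, had 0.788, 1.42 and 1.30 FPKM in GPR35-positive libraries and 2.95, 2.95 and 2.11 FPKM in GPR35-negative libraries. Cdc42ep1, an effector of the GTPase Cdc42, was the most abundant of the group, with 8.53, 12.2 and 10.7 FPKM in GPR35-positive libraries and 18.4, 21.6 and 23.7 FPKM in GPR35-negative libraries. GPR35-positive replicate 1 was the lowest library for all 3 of these genes. Klc3, a kinesin light chain with an exon GC content of 62.5%, had 2.01, 2.96 and 2.6 FPKM in GPR35-positive libraries and 5.85, 5.02 and 4.32 FPKM in GPR35-negative libraries. The rest were Kif18b, a mitotic kinesin, Epn3, an epsin of endocytosis, Tns4, a tensin, Fam83h, Agfg2, Pheta1 and Sh3bp4, with ratios from 0.460 to 0.498. Of 14 other actin and spectrin scaffold genes tested, 7 were called lower (50%) and 3 higher (21.4%), near the shares over all genes tested (45.5% and 23.3%), with a median ratio of 0.887. Among them were Lmna, the lamin A gene (ratio 0.604), Myh10, a non-muscle myosin (5.12), and Actn1, an alpha-actinin (1.90), with limma adjusted p of 2.86e-05, 1.29e-06 and 0.000148.

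Transcription and chromatin genes numbered 10. Tbx3, a T-box factor of liver development, had 17.0, 24.4 and 20.9 FPKM in GPR35-positive libraries and 48.2, 48.7 and 34.6 FPKM in GPR35-negative libraries. Foxq1, a forkhead factor, had 11, 19.5 and 16.5 FPKM in GPR35-positive libraries and 29.0, 34.8 and 36.0 FPKM in GPR35-negative libraries. They were the most abundant of the group, and GPR35-positive replicate 1 was the lowest library for both. Cbx2, a Polycomb protein, had 0.631, 0.964 and 0.936 FPKM in GPR35-positive libraries and 2.1, 2.29 and 1.92 FPKM in GPR35-negative libraries. Hist1h2bl, a replication histone H2B gene, had 1.53, 3.38 and 4.01 FPKM in GPR35-positive libraries and 7.91, 6.82 and 5.17 FPKM in GPR35-negative libraries. These values rested on few reads, 10, 21 and 28 in GPR35-positive libraries and 52, 44 and 31 in GPR35-negative libraries. It belongs to a family of near-identical genes between which the authors' counting may have split reads, so its ratio of 0.448 is uncertain. Irf2bp1, a co-repressor of IRF2 with the highest exon GC content of the set (63.6%), had 3.67, 6.85 and 5.91 FPKM in GPR35-positive libraries and 10.8, 11.5 and 10.7 FPKM in GPR35-negative libraries. Its GPR35-negative values were nearly even and its GPR35-positive values were not. Gtf3c1, a subunit of the RNA polymerase III factor TFIIIC with an exon GC content of 51.8%, had 1.87, 3.0 and 2.47 FPKM in GPR35-positive libraries and 5.38, 5.85 and 3.79 FPKM in GPR35-negative libraries. The retinoic acid receptor gene Rarg, Irf2bpl and the zinc finger gene Zfp777 had ratios from 0.462 to 0.487.

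Liver and endoderm transcription factors outside the 68 were called lower in 12 and higher in 1 of 16 cases. Without Hnf4a and Gata4, which met the criteria before they were set aside, 10 of 14 were called lower (71.4%, against 45.5% over all genes tested) and 1 higher, with a median ratio of 0.622. The hepatocyte and hepatoma markers tested had a lower share of 76.2% and a median ratio of 0.670. Prox1, a regulator of hepatocyte identity, averaged 9.49 ± 0.912 FPKM in GPR35-positive and 17.9 ± 1.67 FPKM in GPR35-negative libraries (SD, n = 3 each, limma adjusted p = 2.80e-05). The forkhead factors Foxa3 and Foxa2 had ratios of 0.556 and 0.634 (limma adjusted p = 5.56e-05 and 6.82e-05). Chromatin regulators of large coding length, none of which is among the 68, were called lower in 6 and higher in 2 of 17 cases (35.3% and 11.8%, against 45.5% and 23.3%), with a median ratio of 0.856. Chd7, a chromatin remodeller, had a ratio of 8.93, the histone methyltransferase gene Kmt2c 1.81 and Trrap, a scaffold of acetyltransferase complexes, 0.598 (limma adjusted p = 1.01e-08, 0.000145 and 0.000298).

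The group of metabolic and secretory pathway genes, in which Fbxo21 and Ndrg1 were also placed, numbered 9. Fbxo21, an F-box protein, had 15.7, 24.5 and 19.6 FPKM in GPR35-positive libraries and 40.5, 46.5 and 36.6 FPKM in GPR35-negative libraries. GPR35-positive replicate 1 was lowest and replicate 2 highest within its group, and GPR35-negative replicate 3 was the lowest of its group. Ndrg1, a gene induced by hypoxia, had 14.7, 19.3 and 18 FPKM in GPR35-positive libraries and 41.2, 36.9 and 25.8 FPKM in GPR35-negative libraries. Fam20a, a secretory pathway pseudokinase, had 12.1, 14.8 and 13.4 FPKM in GPR35-positive libraries and 26.6, 30.4 and 24.6 FPKM in GPR35-negative libraries. The GPR35-negative values of Ndrg1 were more spread than those of Fam20a. Pcx, the pyruvate carboxylase of gluconeogenesis (0.456), Oplah, the 5-oxoprolinase of the glutathione cycle (0.464), Derl3, which helps to clear misfolded proteins from the endoplasmic reticulum (0.449), the phosphatidate phosphatase gene Lpin3 (0.490) and Meltf, encoding melanotransferrin (0.497), were also in the group.

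The remaining 11 genes shared no single function. Sowahb was the most abundant of those with a symbol, with 5.91, 10.3 and 9.74 FPKM in GPR35-positive libraries and 17.8, 20.8 and 17.1 FPKM in GPR35-negative libraries. Samd14, of 62.4% exon GC content, had 1.73, 2.48 and 2.20 FPKM in GPR35-positive libraries and 4.94, 5.27 and 3.14 FPKM in GPR35-negative libraries. Mab21l3, at the other end with 50.7%, had 2.43, 3.77 and 3.36 FPKM in GPR35-positive libraries and 6.94, 6.93 and 5.77 FPKM in GPR35-negative libraries. The most GC-rich and the most GC-poor gene of this group thus had ratios of 0.480 and 0.486. The unannotated ENSMUSG00000118668 had 6.49, 13.8 and 10.4 FPKM in GPR35-positive libraries and 19.3, 23.6 and 19.5 FPKM in GPR35-negative libraries. Eva1c, of 52.0% exon GC content, had 4.28, 4.17 and 3.84 FPKM in GPR35-positive libraries and 7.91, 8.64 and 8.11 FPKM in GPR35-negative libraries. Eva1c was even within both groups, with GPR35-positive replicate 1 the highest of its group, unlike most of the set. Nol4l, Pald1, 2900026A02Rik, Lynx1, Tmem201 and Gm4737 had ratios from 0.444 to 0.493.

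The limits of the choice were not gaps in the data. The genes just inside the ratio limit were Eva1c at 0.498, Src at 0.499 and Ndrg1 at 0.4995, and those just outside were Gaa at 0.5001, Pcyox1l at 0.5004 and Mical2 at 0.501. At the level minimum, Hspg2 and Igsf9 averaged 2.01 and 2.1 FPKM in GPR35-negative libraries, while Slco2a1, Adamtsl5 and Syne4 at 1.90, 1.90 and 1.92 FPKM were outside with ratios from 0.462 to 0.471. Only Gm17571 met the other criteria without separated groups.

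Set against the tumour transcripts, the 68 genes were lower than every hepatocyte and hepatoma marker tested. Summed markers had a ratio of 0.650, and 1097 of the 8114 genes at or above the level minimum, 13.5%, lay below it. The lowest marker was Gpc3, the oncofetal proteoglycan glypican 3, with 123 ± 12 FPKM in GPR35-positive and 225 ± 28.1 FPKM in GPR35-negative libraries (SD, n = 3 each) and a ratio of 0.548. Afp had a ratio of 0.656 and Alb 0.566, and the median of the 21 markers tested was 0.670. Of these 21, limma called 16 lower (76.2%, against 45.5% over all genes tested) and 1 higher (4.76%, against 23.3%). The higher one was Serpina1a, whose family of near-identical genes leaves its value uncertain. The other 4, Apoh, Apoa2, Hp and Serpina1b, had no call, with ratios of 0.884, 0.987, 1.04 and 1.09. The largest terms of the sum were Trf, Krt18 and Rbp4, at 10855, 6522 and 6403 FPKM in GPR35-negative libraries, with ratios of 0.657, 0.648 and 0.609. Because the ratio limit is below the lowest marker, the position of the 68 beneath the markers follows from their choice in the pooled means. It did not hold in every pair of libraries. GPR35-positive replicate 2 over GPR35-negative replicate 3 gave a median ratio of 0.637 over the 68, with 33 of 68 below the summed markers of the same pair (0.629). The pair of GPR35-positive replicate 1 and GPR35-negative replicate 2 gave a median of 0.336, with 68 of 68 below.

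Between libraries of 1 group, the level of the 68 genes differed more than that of the tumour markers. In GPR35-positive replicates 1 to 3, the median over the 68 was 37.2%, 55.5% and 49.0% of the GPR35-negative mean, and in GPR35-negative replicates 1 to 3 it was 99.9%, 109% and 88.6%. Summed hepatocyte and hepatoma markers stood at 65.2%, 64.3% and 65.6% in the GPR35-positive libraries and at 100.2%, 97.6% and 102% in the GPR35-negative ones. The median coefficient of variation was 21.8% in GPR35-positive and 12.4% in GPR35-negative libraries for the 68 genes, against 7.52% and 8.96% over all genes tested. GPR35-positive replicate 1 was the lowest of its group in 61 of the 68 genes (89.7%) and replicate 2 the highest in 58 (85.3%). Over all genes at the level minimum these shares were 41.3% and 40.1%. GPR35-negative replicate 3 was the lowest of its group in 52 (76.5%) and replicate 2 the highest in 49 (72.1%), against 43.7% and 29.2%. The choice of genes used these same values, so the ranks and spreads describe the set and carry no test. Leaving out GPR35-positive replicate 1 moved the number of genes meeting the criteria to 22, of which 16 were among the 68. Leaving out replicate 2 of that group moved it to 173, with 67 among the 68. Leaving out GPR35-negative replicate 2 moved it to 36, with 32 among the 68, and replicate 3 of that group to 136, with 66. The 13 mitochondrially encoded genes, which also differed between libraries, summed to 1779, 1818 and 1738 FPKM in GPR35-positive libraries and 2374, 1893 and 1323 FPKM in GPR35-negative libraries. Their part in the ratios was not tested.

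**Figure D2:**
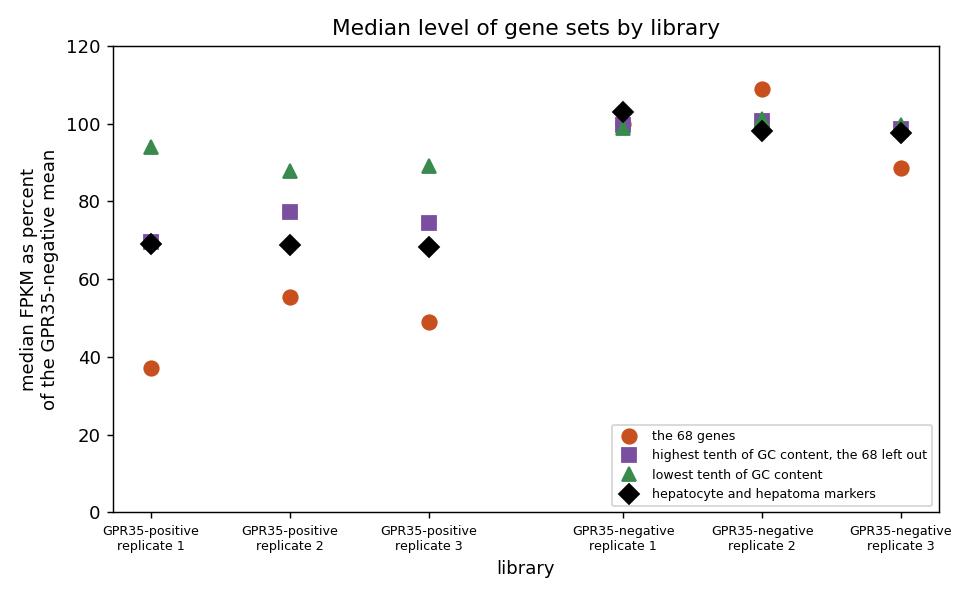
Median FPKM over each gene set in each library, as percent of the gene's GPR35-negative mean: the 68 genes (circles), other genes of the highest decile of exon GC content (squares), genes of the lowest decile (triangles) and the 21 hepatocyte and hepatoma markers tested (diamonds). The 68 genes stood at 37.2% in GPR35-positive replicate 1 and 55.5% in replicate 2, while the markers stood at 69.1% and 68.8%.

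GC content, which the choice of genes did not use, was high throughout the set. The median exon GC content of the 67 annotated genes was 57.5% (range 50.045% to 63.6%), against 49.3% over the genes tested, and 67 of 67 lay above that median. Above the upper quartile of the genes tested (53.9%) lay 55 of 67. Coding sequences had a median GC content of 59.6%, against 52.8%, and G or C held a median of 69.2% of bases at the third codon position, against 60.4%. By deciles of exon GC content of all genes at the level minimum, the members numbered 3, 6, 8, 11 and 39 in deciles 6 to 10 and 0 in the lower 5. Transcription and chromatin genes and matrix genes had the highest medians, both 59.1%, and the metabolic and secretory group 56.5%. Within the 68, the ratio was only weakly related to GC content across genes (Spearman rank correlation −0.20, n = 67). The choice of genes leaves only ratios from 0.373 to 0.4995, which limits any such correlation, and the genes share the same 6 libraries.

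The same lean appeared over all genes at the level minimum, the 68 included. Over deciles of exon GC content, the median ratio of all genes at the level minimum went down from 0.902 in the lowest to 0.722 in the highest. Grouped by ratio instead, the median GC content was 57.5% for genes at or below 0.5, 54.9% for the 468 genes from 0.5 to 0.6, 51.8% for the 1259 from 0.6 to 0.7 and 49.3% for the 1947 from 0.7 to 0.8. For the 2198 genes from 0.8 to 1 it was 47.6%, and for the 2165 above 1 it was 48.2%. Across 8106 genes, the log2 ratio had a Spearman rank correlation of −0.24 with exon GC content and of −0.01 with exon length. GC content also went with differences between the GPR35-positive replicates. The deviation of GPR35-positive replicate 1 from its group mean had a rank correlation of −0.39 with GC content, and that of replicate 2 of 0.32. In GPR35-negative replicates 1 to 3 these correlations were 0.08, 0.001 and −0.09. With exon length they were −0.13, 0.21 and −0.10 in GPR35-positive and −0.08, 0.25 and −0.09 in GPR35-negative replicates 1 to 3. In the highest decile, leaving out the 68, the median level was 69.7%, 77.2% and 74.3% of the GPR35-negative mean in GPR35-positive replicates 1 to 3, and in the lowest decile 93.9%, 87.8% and 89.2%. GPR35-positive replicate 1 was the lowest of its group in 66.2% of those other high-GC genes and in 18.7% of the low-GC genes, against 89.7% of the 68. With a trend on GC content and length removed from each library, the ratios of the 68 ran from 0.466 to 0.614. All 68 lay below the summed markers treated the same way (0.685). The 68 were chosen at a ratio of at most 0.5, so that position follows largely from their choice. ENSMUSG00000118668 has no annotation, so no trend could be removed from its values, and it kept its ratio of 0.490. With it counted, 12 genes met the criteria, 9 of them among the 68, itself included. With median-of-ratios scaling 14 genes met them, and the ratios of the 68 ran from 0.412 to 0.553. The part of base composition in the ratios was not tested.

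**Figure D3:**
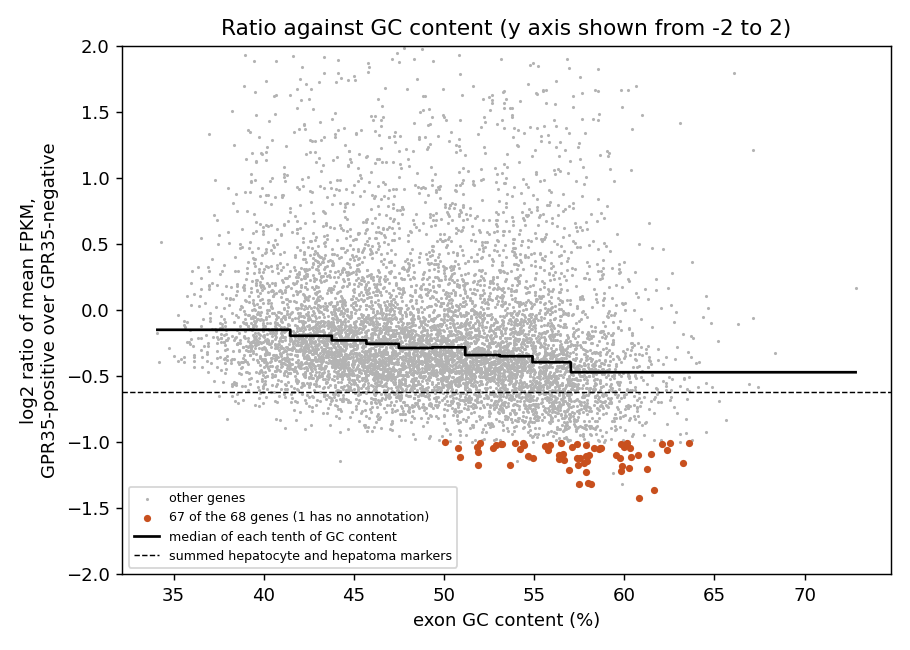
Log2 ratio of mean FPKM, GPR35-positive over GPR35-negative, against exon GC content in percent for 8107 annotated genes with at least 2 FPKM in GPR35-negative libraries, of which 258 lie outside the plotted range; orange points are the 67 annotated genes of the set, the stepped line is the median of each GC decile and the dashed line the ratio of summed hepatocyte and hepatoma markers. The median line goes down from a ratio of 0.902 at the low-GC end to 0.722 at the high-GC end, and the orange points sit between 50.045% and 63.6% GC.

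Exon length set the genes apart less than exon GC content. The median exon length was 4371 bases, against 4219 over the genes tested, and 37 of 67 were longer than that median. Their coding sequences were longer, with a median of 2274 bases against 1296, and the longest transcript had more exons, 12 against 8. That median coding length lay above the upper quartile of the genes tested, 2038 bases. The median coding GC content, 59.6%, likewise lay above its upper quartile, 57.1%. Hist1h2bl was the shortest with 381 exon bases, and Fat1 the longest with 15655. By deciles of exon length the members numbered 1, 3, 6, 2, 12, 15, 11, 6, 4 and 7, low to high, with the most in the middle. Median ratios over the same deciles of all genes lay between 0.795 and 0.850.

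**Figure D4:**
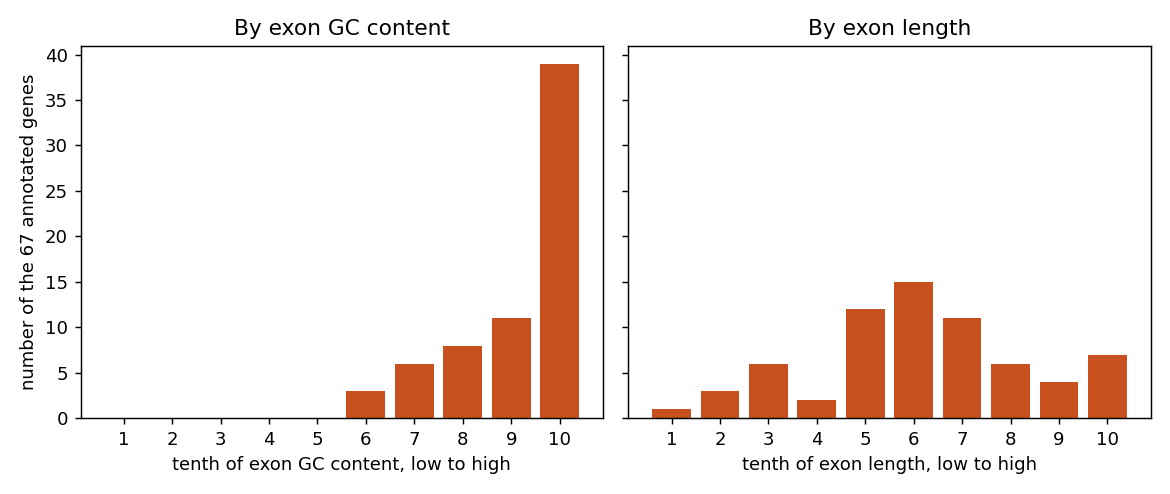
Number of the 67 annotated genes in each decile of exon GC content (left) and of exon length (right), deciles being those of 8107 genes with at least 2 FPKM in GPR35-negative libraries, low to high. The highest GC decile holds 39 of the genes and the lower 5 hold 0, while the length deciles hold 1 to 15 each.

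Promoters of the set were GC-rich too. RefSeq promoter sequences (GRCm38.p6, 250 bases before to 50 after the start) matched 49 of the 68 genes, with a median GC content of 65.3%, against 61.0% for 6440 genes at the level minimum and 52.7% for 27025 promoters in all. The GC box GGGCGG, searched on both strands, occurred in 40 of 49, 81.6%, against 67.02% of genes at the level minimum and 35.9% of all promoters. The TATA box TATAAA occurred in 1 of 49, 2.04%, against 6.97% and 14.2%. The HNF4 core motif CAAAGTCC of a hepatocyte factor was rare everywhere, in 0 of 49 against 1.4% of both. CCAAT occurred in 17 of 49, 34.7%, against 39.2% and 37.9%. These motifs do not contain each other, and a match describes letters only. The promoter of Hspg2, the gene with the lowest ratio, is printed on its own strand, the forward one, at chr4:137468553-137468852, with its 5 GC boxes in capitals.
Hspg2 promoter: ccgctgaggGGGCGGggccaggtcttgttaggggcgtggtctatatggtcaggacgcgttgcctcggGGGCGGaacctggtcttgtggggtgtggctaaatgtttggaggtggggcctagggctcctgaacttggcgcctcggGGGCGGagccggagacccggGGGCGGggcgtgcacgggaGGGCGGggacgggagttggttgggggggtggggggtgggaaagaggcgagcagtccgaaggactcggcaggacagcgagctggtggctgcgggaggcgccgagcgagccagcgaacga
Its GC content is 70.3%, and it holds 27 CpG sites, against a median of 23 over the 49 promoters and 22 over genes at the level minimum.

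The genes were spread over most of the genome. Chromosome 11 held 10 of the 67 annotated genes, 14.9%, against 9.02% of genes at the level minimum, and chromosome 15 held 7, 10.4%, against 4.45%. Both have a higher median exon GC content (51.3% and 52.3%) than the genes at the level minimum as a whole (49.4%). Chromosome 17, with a median of 52.5%, and chromosome 18, with 45.9%, held none. Chromosome 7 had the highest median, 52.9%, and held 4 of the 67, 5.97%, against 7.02% of genes at the level minimum. Exon bases shared with another annotated gene were found in 16 of 67 genes, and exceeded 10% in 6, among them Foxq1 (66.1%), Rtkn (41.6%), Klc3 (28.1%), Inppl1 (20.3%) and Oplah (11.7%). The sources used here do not say whether the authors counted reads by strand, so the values of these 6 genes are uncertain.

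Markers of other cell types were measured in the same libraries, and their part in the ratios of the 68 was not tested. Of 18 mature neutrophil markers limma called 17 higher (94.4%, against 23.3% over all genes tested) and left 1 without a call. Of 11 macrophage and monocyte markers 11 were called higher (100%). Of 7 T and NK cell markers 3 were called lower (42.9%, near the 45.5% over all genes tested), with summed levels of 53.7 FPKM (52.3 to 54.7) in GPR35-positive and 66.5 FPKM (59.9 to 75.7) in GPR35-negative libraries. Of 7 fibroblast and stellate markers 6 were called higher (85.7%) and 1 lower (14.3%), at 38.7 FPKM (35.3 to 42.1) in GPR35-positive and 19.8 FPKM (16.4 to 22.6) in GPR35-negative libraries. Of 4 endothelial markers 2 were called higher and 2 lower (50% each), at 14.6 FPKM (14.1 to 15.2) in GPR35-positive and 15.3 FPKM (14.3 to 15.9) in GPR35-negative libraries, ranges that overlap.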

How the data were processed

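RNA was extracted with Trizol and made into libraries with the NEBNext Ultra II RNA kit, per the labels' protocols. Values are FPKM, which the authors deposited as 1 table whose 6 value columns were all used. The submitters' processing notes list 4 tools without roles, namely DESeq (1.38.3), HTSeq (0.9.1), HISAT2 (2.1.0) and fastp (0.22.0), and the human build GRCh38, although the gene identifiers are those of mouse. With exon lengths from GENCODE M21 (GRCm38; 21851 of 21959 identifiers matched), 97.7% of FPKM values above 0 were whole reads within 0.02 reads, which gave the depth, and 1 read on a 1 kb gene was worth 0.0546 to 0.0635 FPKM. Replicates differed by more than sampling noise (mean chi-square per gene 5.15 to 20.5 over 11113 genes), and all 6 were kept; this does not show that they came from separate animals.

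A gene was tested if 3 or more libraries reached 1 FPKM. The two-sided test was limma-trend (limma 3.58.1, R 4.3.3) of group alone, on log2(FPKM + 1), with p-values adjusted by Benjamini-Hochberg over the 10060 genes tested and a threshold of 0.05. Log2 fold changes are on that scale, which understates changes of low genes, and ratios are of mean FPKM. The test was tried on simulated data first. The 68 genes, the gene lists and the tests were chosen with earlier results of these data known, and the functional groups were made after the members were seen, so the members' own values carry no test. Genes given in full were the 12 lowest ratios, the 8 highest GPR35-negative means, the 4 highest and 4 lowest GC contents and the 3 nearest the ratio limit on each side, with up to 3 of each list by smallest p; other members were named by function. Erbb2, Fgfr4, Epha2, Lamb2, Sowahb, Alb and Serpina1a were added to these after their values were seen. Some genes and 1 motif covered by these choices are not reported here. GC content and length are of the union of exons. Alternatives were other pseudocounts, filters, level minima, ratio limits and scalings, limma-voom on recovered reads, a replicate block, removal of a loess trend on GC content and length, and leaving out each library. Software was Python 3.11.15, pandas 2.3.3, numpy 2.4.6 and, for figures, matplotlib 3.10.9.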

Additional observations from a re-analysis of the deposited data

How the results depend on the processing

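The number of genes meeting the criteria, 68 as reported, depended on most settings. It was 14 with median-of-ratios scaling, 103 with scaling that left out mitochondrial genes and the 50 most abundant, 12 with the GC and length trend removed, 41 with a minimum of 5 FPKM and 531 with a ratio limit of 0.6, and 22 (without GPR35-positive replicate 1) to 173 (without GPR35-positive replicate 2) when 1 library was left out. A minimum of 1 FPKM gave 99 and no separation 69. With median-of-ratios scaling, the trend removed and each library left out, the ratios of all 68 genes stayed under 1, a direction that their choice fixes. Their median GC content, 57.5%, was 59.6% for coding sequence and 56.8% to 57.9% without 1 library. Their median length, 4371 bases, was 3906 for the longest transcript, 2274 for coding sequence, 5048.5 with median-of-ratios scaling and 3985.5 to 4783 without 1 library.

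Genes called lower, 4575, were 3030 with median-of-ratios scaling, and genes called higher, 2342, were 1434 with a filter of 5 FPKM. The summed hepatocyte and hepatoma markers, 0.650, had a ratio of 0.717 with median-of-ratios scaling, 0.670 as the median of the markers, 0.685 with the GC and length trend removed (an alternative chosen after seeing the data) and 0.642 to 0.657 without 1 library. With the 5 FPKM filter, which tests fewer genes, lower calls among the other list genes, those set aside by name included, were 4 for polarity, 10 for adhesion, 2 for basement membrane, 4 for actin scaffolds, 5 for liver factors, 4 for Notch, 3 for chromatin and 4 for Wnt. The Wnt count of 8 was also 4 with no filter, 4 with the trend removed, 3 under median-of-ratios scaling and 4 to 8 without 1 library. The cause of these moves was not tested where no fewer genes or samples entered.

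With the replicate number as a block, 4633 genes were called lower and 2365 higher. Libraries of the same number did not deviate together in all pairs (correlations of −0.002, 0.40 and −0.06), so the numbers were not taken as pairs. At these depths, 1 read was worth up to 0.0635 FPKM for a 1 kb gene. Among the 65 genes whose reads could be recovered, Hist1h2bl, with 381 exon bases, had the fewest, 10 to 52 a library. By read number its values were thus the least precise.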
